A study of Mus musculus with 3 samples.

Results

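The 37 genes described here mark macrophages, their monocyte relatives and cells that present antigen on major histocompatibility complex (MHC) class II. They were chosen by name, with earlier results of these data known. Each name was looked up in the deposited transcript annotation of the mouse heart ventricle, and the value of its locus was read in each library. All 37 were found among the 48626 loci of the table, 35 under their current symbol and 2 under an older one (Adgre1 as Emr1 and Spi1 as Sfpi1). They were ordered by role into 16 resident macrophage genes, 6 monocyte genes, 5 class II genes and 10 genes shared by several kinds of white blood cell. Heart ventricles of C57BL/6 mice at the embryonic stages E10.5 and E13.5 (E counts days of gestation) and of adults aged 8 weeks were sequenced from total RNA, as part of a search for long non-coding RNAs near cardiac transcription factor genes. The labels give neither an allele nor a treatment, and the number of animals behind a library is not given in the sources used here. Each stage had 1 library, so differences between stages are differences between single libraries, without replicates, and no test was made.

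Macrophages settle in the heart before birth, from yolk sac and later from fetal liver precursors, and live on the growth factors that bind the receptor Csf1r. They engulf dying cells and debris, carry scavenger and Fc receptors, and make the complement protein C1q. Monocytes are made in liver and bone marrow, travel in blood and enter tissue with the help of the chemokine receptor Ccr2. Class II proteins are pairs of an alpha and a beta chain that travel with the invariant chain Cd74, receive a peptide in the endosome once Cd74 has been cut by proteases such as cathepsin S (Ctss), and show it to helper T cells.

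Values are FPKM, in which the fragments of a locus are scaled to its exon length and to the mapped fragments of the library, so that levels can be compared between genes. Where a sentence gives 3 values of a gene without naming stages, they are those of E10.5, E13.5 and the adult in this order. A change is the difference of log2(FPKM + 1) between 2 libraries. On this scale genes near 0 move less than their ratio would give. A gene was called higher or lower at a change of 2 or more, and 36 of the 37 members reached 1 FPKM in at least 1 library. The exception was Timd4, a receptor for dying cells, which was listed at 0 at E10.5 and reached 0.0933 and 0.963 FPKM in the later libraries. The lowest steps of the values put 1 FPKM over 1 kb at about 13.8, 26.7 and 19.0 fragments for the 3 stages. Fragment numbers and 95% intervals below follow from these approximate depths and cover counting error only. Fewer cells of a type and less RNA per cell cannot be told apart in whole tissue. The tissue label was checked with 8 cardiomyocyte genes, which summed to 15346, 22908 and 29462 FPKM, with Myl2 alone at 7790, 12217 and 11568 FPKM.

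The deposited annotation joins 3 member loci to another gene, and their values belong to the whole locus. Mrc1 is joined to Slc39a12, Cd74 to a microRNA (Mir5107), and Ly6c2 to Ly6c1 and Ly6a in a locus on chromosome 15 from 74992092 to 75239039 (GRCm38). Ly6c1 and Ly6a are known from endothelial cells, so that locus cannot be read as monocyte RNA alone. The Folr2 name is also carried by a short locus on the other strand, at 0.516, 0.371 and 0.362 FPKM, which was kept apart.

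The promoters of 4 members are shown because the results turn on these genes. H2-Aa and H2-Eb1 were under 1 FPKM at both embryonic stages and at 56.1 and 13.65 FPKM in the adult, whereas Ctss and C1qc were already at 17.5 and 16.7 FPKM at E13.5. The sequences come from RefSeq on GRCm38.p6, run from 250 bases before to 50 bases after the start site, and are written 5′ to 3′ on the gene's strand. Capitals in the first pair mark the Y box letters CTGATTGG, the core of a class II promoter element bound by NF-Y.
H2-Aa, chr17:34287774-34288073, minus strand: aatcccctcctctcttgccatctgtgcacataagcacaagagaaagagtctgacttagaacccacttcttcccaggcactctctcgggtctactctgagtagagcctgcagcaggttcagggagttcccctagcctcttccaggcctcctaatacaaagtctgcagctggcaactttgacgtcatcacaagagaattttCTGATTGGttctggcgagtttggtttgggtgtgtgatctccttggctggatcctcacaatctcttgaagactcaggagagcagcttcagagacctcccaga
H2-Eb1, chr17:34305617-34305916, plus strand: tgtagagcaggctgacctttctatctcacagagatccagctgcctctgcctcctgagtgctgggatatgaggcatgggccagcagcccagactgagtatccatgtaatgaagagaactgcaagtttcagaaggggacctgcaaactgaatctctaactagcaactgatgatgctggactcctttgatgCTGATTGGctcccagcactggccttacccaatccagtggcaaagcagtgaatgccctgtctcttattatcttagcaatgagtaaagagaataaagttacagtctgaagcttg
Capitals in the second pair mark the letters GAGGAAGT, a purine-rich word of the kind bound by PU.1, read on the other strand. PU.1 is the protein of the member Spi1.
Ctss, chr3:95526536-95526835, plus strand: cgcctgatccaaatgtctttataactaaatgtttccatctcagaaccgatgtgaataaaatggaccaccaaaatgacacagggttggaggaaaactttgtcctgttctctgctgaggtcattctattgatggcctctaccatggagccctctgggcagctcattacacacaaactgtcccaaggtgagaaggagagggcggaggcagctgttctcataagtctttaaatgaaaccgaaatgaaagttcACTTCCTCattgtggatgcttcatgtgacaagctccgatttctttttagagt
C1qc, chr4:136892865-136893164, minus strand: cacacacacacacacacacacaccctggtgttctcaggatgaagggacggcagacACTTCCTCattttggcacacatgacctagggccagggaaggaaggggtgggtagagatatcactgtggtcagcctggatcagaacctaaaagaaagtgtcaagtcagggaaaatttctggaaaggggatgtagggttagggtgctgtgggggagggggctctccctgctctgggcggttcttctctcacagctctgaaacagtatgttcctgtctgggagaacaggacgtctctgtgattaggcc
The Y box began 51 bases before the start site in H2-Aa and 62 bases before it in H2-Eb1. On either strand it was found in 4.10% of 32851 RefSeq promoters of this length, and in 2 of the 28 member genes that have a promoter entry. Outside the members it was also found in the class II pathway genes H2-Oa and H2-Eb2, which stayed under 1 FPKM in each library, the adult included. The PU.1 word began 2 bases before the start site in Ctss, so that it runs across the start, and 195 bases before it in C1qc. These start sites are those of RefSeq. The assembled loci of H2-Aa, H2-Eb1 and C1qc begin further upstream, at 34288202, 34305631 and 136893116. Their marked words thus lie within the span of the locus whose value is given. The PU.1 word was found in 3.20% of the promoters and in 6 of the 28 member genes. These were C1qc, Cd53, Ctss, F13a1, Ly6c2 and Pf4. For both words the percent counts promoter entries, whereas a member gene was counted if any of its entries matched. Some genes, such as Ly6c2, have more than 1 entry, so the 2 figures are not on the same footing. The words do not overlap each other and were settled after the matches of several candidate words had been seen, so the matches are a description and not sites.

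From E10.5 to E13.5, 10 of the 36 members were higher by 2 or more, where 0.851% of the 12569 messenger RNA (mRNA) loci that reach 1 FPKM were. The 10 were Csf1r, Cx3cr1, C1qa, C1qb and C1qc among the resident macrophage genes, Tyrobp, Fcer1g, Fcgr3 and Cd52 among the shared genes, and Ctss. The joined Ly6c2 locus was the 1 member lower by 2 or more, against 0.247% of mRNA loci. Between E13.5 and the adult the list was different. Here 19 members were higher (4.41% of mRNA loci) and 0 were lower (9.88% of mRNA loci), and the 19 held all 5 class II genes and 5 of the 6 monocyte genes, but 6 of the 15 resident macrophage genes that reach 1 FPKM and 3 of the 10 shared genes. Over the whole span from E10.5 to the adult, 32 members were higher (5.59% of mRNA loci) and 0 were lower (8.10% of mRNA loci). The 3 comparisons share libraries and are not independent of each other. Because the members were chosen with earlier results of these data known, the counts beside the shares of mRNA loci are a description.

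The median change of the members was 1.07 from E10.5 to E13.5, 2.02 from E13.5 to the adult and 3.69 over the whole span. The medians of all mRNA loci were 0.17, -0.50 and -0.40, so adult values of most genes lie lower in these libraries and member changes should be read against that shift. Scaling by median of ratios brought these mRNA medians to 0.04, -0.01 and -0.05. In the first step the class II genes had a median change of -0.13 and the monocyte genes of 0.17, whereas the resident macrophage genes had 1.29 and the shared genes 1.65. In the second step the order was turned, with medians of 3.42 for class II, 3.02 for monocyte, 1.86 for resident macrophage and 1.74 for shared genes. With the joined loci left out, the class II median of the first step was 0.92. Of the 37 members, 30 had a higher value in each later library, 5 were lowest at E13.5 and 2 were highest at E13.5.

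**Figure D1:**
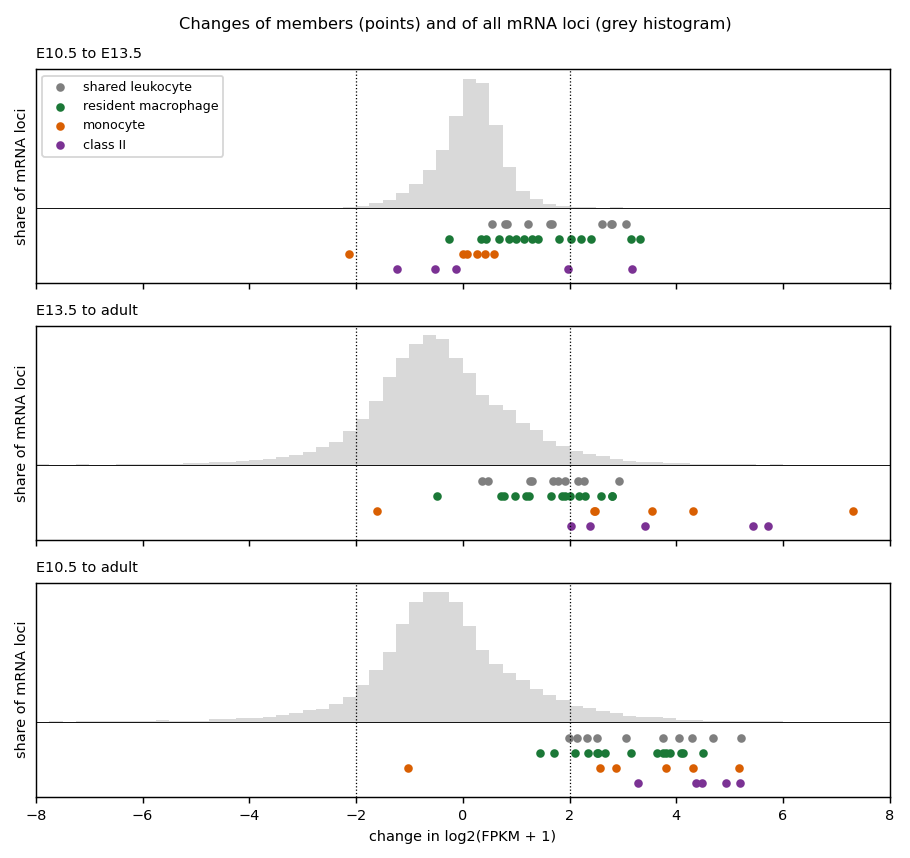
Changes in log2(FPKM + 1) between libraries for the 36 members at 1 FPKM or more (points, coloured by role) under the distribution of 12569 mRNA loci (grey), with dotted lines at changes of 2 in each direction. Monocyte genes lie between -2.14 and 0.58 from E10.5 to E13.5, and all 5 class II genes lie above 2 from E13.5 to the adult.

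The shared leukocyte genes are carried by macrophages, monocytes and, in part, other white blood cells. All 10 had higher values at E13.5 than at E10.5 and higher values again in the adult, and all 10 reached 1 FPKM at E13.5, where 4 had done so at E10.5. Ptprc, the CD45 phosphatase on the surface of white blood cells, was at 0.192, 1.11 and 15.0 FPKM. Spi1, the gene of the myeloid transcription factor PU.1, was at 0.246, 1.90 and 6.15 FPKM. At E13.5 Ptprc stood at 7.42% and Spi1 at 30.9% of the adult value.

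Tyrobp and Fcer1g are adaptor chains through which myeloid receptors signal, and Fcgr3 is an Fc receptor for IgG that needs Fcer1g. Tyrobp was at 1.31, 14.9 and 37.4 FPKM, and Fcer1g at 0.688, 10.54 and 42.3 FPKM. Fcgr3 was at 0.222 FPKM (about 4 fragments), 6.43 FPKM and 22.9 FPKM. The 3 genes were called higher from E10.5 to E13.5 with changes of 2.79, 2.77 and 2.60, and stood at 39.9%, 24.9% and 28.2% of the adult value at E13.5. Fcgr3 shares 3.53% of its 100-base windows with Fcgr2b and 0 with Fcgr4.

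Cd52, a small surface glycoprotein of leukocytes, was listed at 0 at E10.5 and was at 7.34 and 36.1 FPKM in the later libraries. Aif1, the actin-binding protein also called Iba1, was at 0.0839 FPKM (about 2 fragments), 2.38 FPKM and 3.31 FPKM. Coro1a, an actin regulator of leukocytes, was at 1.25, 6.16 and 8.90 FPKM. Aif1 and Coro1a had reached 71.9% and 69.2% of the adult value by E13.5, the most among the shared genes. Laptm5, a lysosomal membrane protein, and the tetraspanin Cd53 were at 1.47, 3.29 and 19.7 FPKM and at 2.02, 3.40 and 14.2 FPKM.

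**Figure D2:**
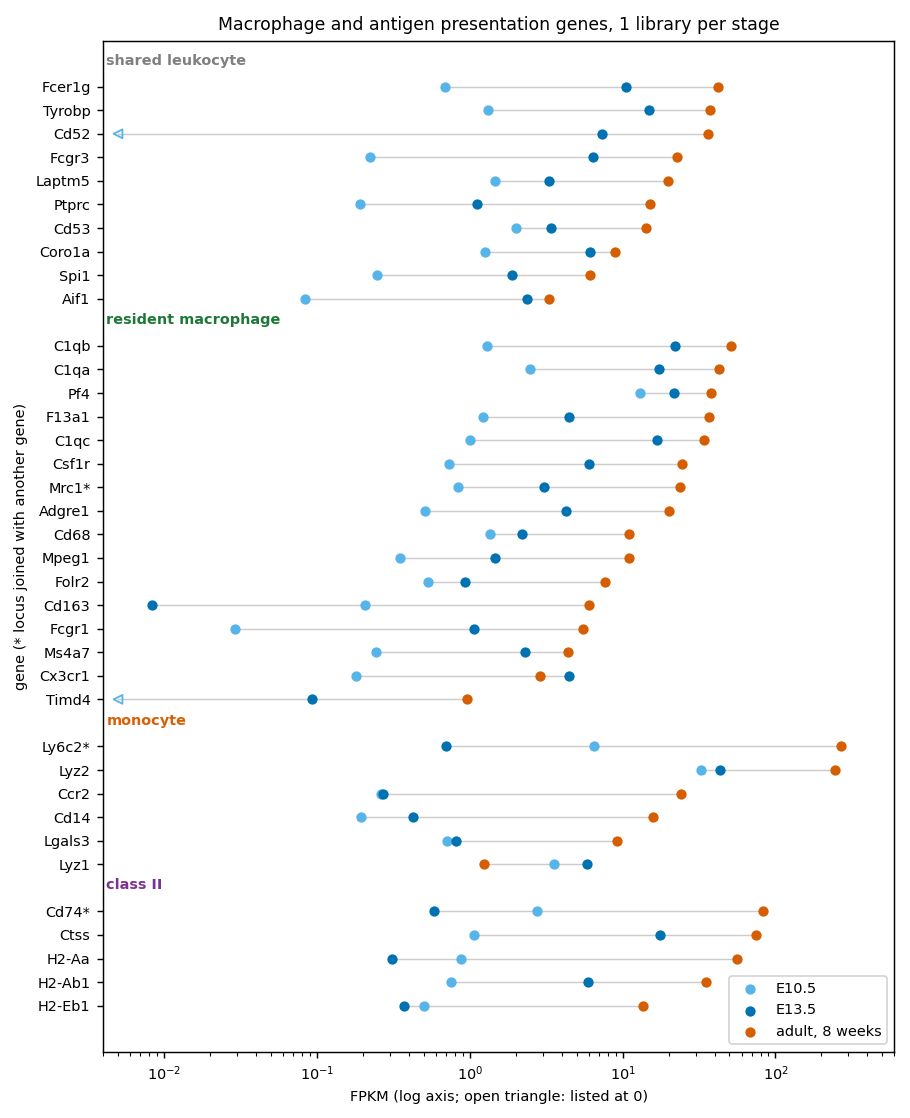
FPKM of the 37 members in the 3 libraries on a log axis, grouped by role and ordered by adult value. An open triangle marks a gene listed at 0 and an asterisk a locus joined with another gene; Cd163, the Ly6c2 locus, Cd74, H2-Aa and H2-Eb1 have their lowest point at E13.5, and Cx3cr1 and Lyz1 their highest.

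Among the resident macrophage genes, Csf1r, the receptor for the growth factors CSF1 and IL-34, was at 0.729 FPKM (about 39 fragments), 6.01 FPKM and 24.4 FPKM. Adgre1, the adhesion receptor recognised by the F4/80 antibody, was at 0.511, 4.24 and 20.1 FPKM. These defining genes kept nearly the same ratio to each other, with Adgre1 at 0.701, 0.706 and 0.825 of Csf1r. The changes of Csf1r were 2.02 and 1.86 in the first and second step, and those of Adgre1 were 1.79 and 2.01, so each passed the limit in 1 step and lay just under it in the other. With the alternative scalings Csf1r was under the limit in the first step, at 1.84 and 1.79, and above it in the second, at 2.38 and 2.15.

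The C1q genes encode the A, B and C chains of the first complement component, and lie side by side on chromosome 4 between 136880145 and 136898844. C1qa was at 2.49, 17.4 and 42.6 FPKM, C1qb at 1.29, 21.9 and 51.0 FPKM and C1qc at 1.00, 16.7 and 34.1 FPKM. All 3 were called higher from E10.5 to E13.5, with changes of 2.40, 3.32 and 3.15, and none was called from E13.5 to the adult, with changes of 1.24, 1.18 and 0.99. At E13.5 they stood at 40.9%, 42.9% and 49.0% of the adult value, above the 24.7% of Csf1r (95% interval 22.5 to 27.0%). Ms4a7, a membrane protein of macrophages, was likewise at 52.3% of its adult value at E13.5, with 0.245 FPKM (about 3 fragments), 2.29 FPKM and 4.38 FPKM.

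Cx3cr1, the receptor for the chemokine fractalkine, differed from the other resident macrophage genes in that its highest value was at E13.5. It was at 0.181 FPKM (about 9 fragments), 4.45 FPKM and 2.87 FPKM. The E13.5 value was 155% of the adult one (95% interval 131 to 184%), next to a median of 151% over all mRNA loci. Its change from E13.5 to the adult was -0.49 in the deposited scaling, close to the mRNA median of -0.50, and -0.05 with median-of-ratios scaling. Relative to Csf1r of the same library it was at 0.248, 0.740 and 0.118. Its ligand Cx3cl1 was at 2.22, 2.59 and 1.51 FPKM.

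Mrc1, F13a1, Folr2 and Mpeg1 stood lower at E13.5, relative to the adult, than Csf1r or the C1q genes. Mrc1, the mannose receptor, was at 0.837, 3.06 and 23.6 FPKM for its joined locus. F13a1, the A subunit of clotting factor XIII, was at 1.225, 4.45 and 36.7 FPKM. Folr2, the folate receptor beta, was at 0.536, 0.935 and 7.72 FPKM. These genes and Mpeg1, a pore-forming protein of phagosomes at 0.348, 1.46 and 11.02 FPKM, stood at 12.1 to 13.3% of the adult value at E13.5 and were called higher from E13.5 to the adult with changes from 2.17 to 2.79.

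Cd163, the scavenger receptor for haemoglobin bound to haptoglobin, was at 0.205 FPKM (about 13 fragments), 0.00839 FPKM (about 1 fragment) and 6.00 FPKM. The E13.5 value was 0.14% of the adult one (95% interval 0.00351 to 0.778%), the lowest share of all members. The intervals at E10.5 (0.112 to 0.359 FPKM) and E13.5 (0.000211 to 0.0465 FPKM) did not overlap. Its change from E13.5 to the adult was 2.80, next to 2.79 for F13a1, and these were the highest of the resident macrophage genes.

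Of the remaining genes of this role, Cd68, a lysosomal glycoprotein of phagocytes, was at 1.36, 2.19 and 11.1 FPKM. Fcgr1, the high-affinity IgG receptor, was at 0.0293 FPKM (about 1 fragment), 1.06 FPKM and 5.49 FPKM. At E13.5 they stood close to each other, at 19.8% and 19.4% of the adult value. Pf4, a chemokine of platelets that some macrophages also make, was at 13.1, 21.6 and 37.6 FPKM and was called in none of the 3 comparisons, with a change of 1.46 over the whole span. Relative to Csf1r, Pf4 was at 17.9, 3.60 and 1.54, so that it exceeded the receptor most at E10.5. The 7 platelet and megakaryocyte genes summed to 12.8, 18.4 and 8.20 FPKM, and their part in the Pf4 values was not tested.

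Among the monocyte genes, Ccr2, Cd14 and Lgals3 were under 1 FPKM at both embryonic stages. Ccr2, through which monocytes leave the blood, was at 0.264 FPKM (about 13 fragments), 0.270 FPKM (about 26 fragments) and 24.2 FPKM (about 1656 fragments). The intervals of both embryonic libraries overlapped (0.140 to 0.449 and 0.177 to 0.398 FPKM), and E13.5 stood at 1.11% of the adult value (95% interval 0.730 to 1.65%). The adult value was 89.8 times that of E13.5. The sign of the change from E10.5 to E13.5, 0.01, turned to -0.02 and -0.06 with the other scalings.

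Cd14, the lipopolysaccharide co-receptor, was at 0.194, 0.427 and 15.8 FPKM. Lgals3, a galactose-binding lectin of activated macrophages, was at 0.708, 0.815 and 9.13 FPKM. Both were thus low in both embryonic libraries, at 2.71% and 8.93% of the adult value at E13.5, and were called higher from E13.5 to the adult with changes of 3.55 and 2.48. For Lgals3 the sign of the first step, 0.09, turned to -0.05 when the libraries were scaled to totals without globin and mitochondrial loci.

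Lyz2, the lysozyme of macrophages, monocytes and neutrophils, was the highest member at E10.5 and E13.5, at 32.5 and 43.6 FPKM, and was at 244 FPKM in the adult. Its neighbour Lyz1 on chromosome 10, known from Paneth cells of the gut, was at 3.56, 5.81 and 1.24 FPKM. Lyz1 was the 1 member with a lower value in the adult than at E10.5, by 1.03, and its E13.5 value was 470.5% of the adult one (95% interval 317 to 710%). The transcripts share 2.06% (Lyz1) and 1.97% (Lyz2) of their 100-base windows, and how the authors' counting placed fragments that match both is not given in the sources used here. The neutrophil genes, whose cells also make Lyz2, summed to 1.15, 15.3 and 33.5 FPKM over 10 loci, and their part in the Lyz2 values was not tested.

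The locus that joins Ly6c2 with Ly6c1 and Ly6a was at 6.51, 0.704 and 269.5 FPKM. It was the lowest of the 3 libraries at E13.5, and the highest member of all in the adult. The transcripts of Ly6c2 and Ly6c1 share 15.8% and 15.3% of their 100-base windows. The other 6 endothelial genes of the marker list ranged between 12.9 and 63.8 FPKM in the E13.5 library and between 18.8 and 72.8 FPKM in the adult. None of those 6 was called in any comparison, and the share of monocyte RNA in the joined locus was not tested.

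The class II genes had the highest median change of the 4 roles between E13.5 and the adult. Cd74 was at 2.74 FPKM (about 53 fragments), 0.586 FPKM (about 22 fragments) and 83.0 FPKM. H2-Aa, the alpha chain of I-A, was at 0.875, 0.312 and 56.1 FPKM. H2-Eb1, the beta chain of I-E, was at 0.5002, 0.369 and 13.65 FPKM. For Cd74 the intervals at E10.5 (2.03 to 3.55 FPKM) and E13.5 (0.365 to 0.883 FPKM) did not overlap, whereas for H2-Aa and H2-Eb1, with 9 to 16 fragments in each embryonic library, they did. At E13.5 these genes stood at 0.71%, 0.56% and 2.70% of the adult value, and their changes from E13.5 to the adult were 5.73, 5.44 and 3.42.

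H2-Ab1, the beta chain that pairs with H2-Aa, had another pattern of values in the embryo. It was at 0.758 FPKM (about 12 fragments), 5.91 FPKM (about 188 fragments) and 35.2 FPKM. At E10.5 the 2 chains of I-A were close to each other, at E13.5 the beta chain was at 5.91 FPKM beside 0.312 for the alpha chain (95% interval 0.144 to 0.599 FPKM), and in the adult the alpha chain was the higher one. Whether the gap at E13.5 comes from how fragments were assigned to these loci was not tested, and reads were not used here. H2-Ab1 stood at 16.8% of its adult value at E13.5 (95% interval 14.2 to 19.7%). The change of 1.98 from E10.5 to E13.5 lay just under the limit, and that of 2.39 from E13.5 to the adult lay above it.

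Ctss was, like the C1q genes, called higher already between the embryonic stages. It was at 1.06 FPKM (about 20 fragments), 17.5 FPKM and 74.7 FPKM. It was called higher in both steps, with changes of 3.17 and 2.03, and stood at 23.5% of the adult value at E13.5. Besides Ctss, Cd52 was the 1 other member called higher in both steps, and with the alternative scalings Fcer1g also was, with second-step changes of 2.45 and 2.22. With median-of-ratios scaling Fcgr3 was as well, with changes of 2.40 and 2.20.

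**Figure D3:**
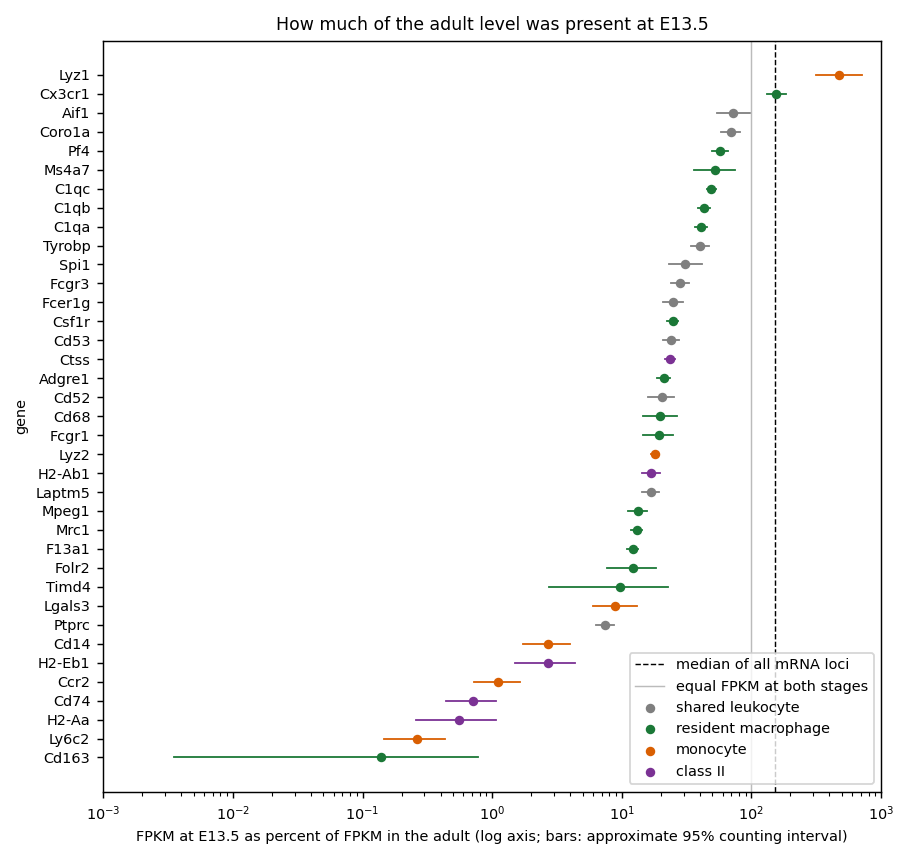
FPKM at E13.5 as a percent of adult FPKM for each member (log axis), with approximate 95% counting intervals as bars and colours for roles. The class II genes Cd74, H2-Aa and H2-Eb1 lie at 0.56 to 2.70%, the C1q genes at 40.9 to 49.0% and the median of all mRNA loci (dashed) at 151%.

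The 3 roles were then set side by side by the share of the adult value that was present at E13.5. The median share was 21.1% for resident macrophage genes, 5.82% for monocyte genes and 2.70% for class II genes, and 26.5% for shared leukocyte genes. Of the resident macrophage genes, 8 of 15 stood at 20% or more and 1 of 15, Cd163, under 5%. Of the monocyte genes 1 of 6 stood at 20% or more and 3 of 6 under 5%, and of the class II genes 1 of 5 and 3 of 5. The ranges overlapped, since Lyz1 stood above and Cd163 below every other member. With the joined loci left out, the monocyte and class II medians were 8.93% and 9.75%, and with median-of-ratios scaling the resident macrophage median was 13.8%.

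Dividing each gene by Csf1r of the same library removes the scaling between libraries. Ccr2 was at 0.362, 0.0449 and 0.994 of Csf1r in the order of stages. Cd74 was at 3.75, 0.0976 and 3.40 of Csf1r, and H2-Aa at 1.20, 0.0519 and 2.30. For these genes E13.5 was thus the low point relative to Csf1r. C1qb was at 1.77, 3.65 and 2.09 of Csf1r, and C1qc at 1.37, 2.79 and 1.40, so that E13.5 was their high point. C1qa was at 3.41, 2.90 and 1.75 of Csf1r, with its high point at E10.5. The E10.5 ratios rest on about 39 fragments of Csf1r.

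**Figure D4:**
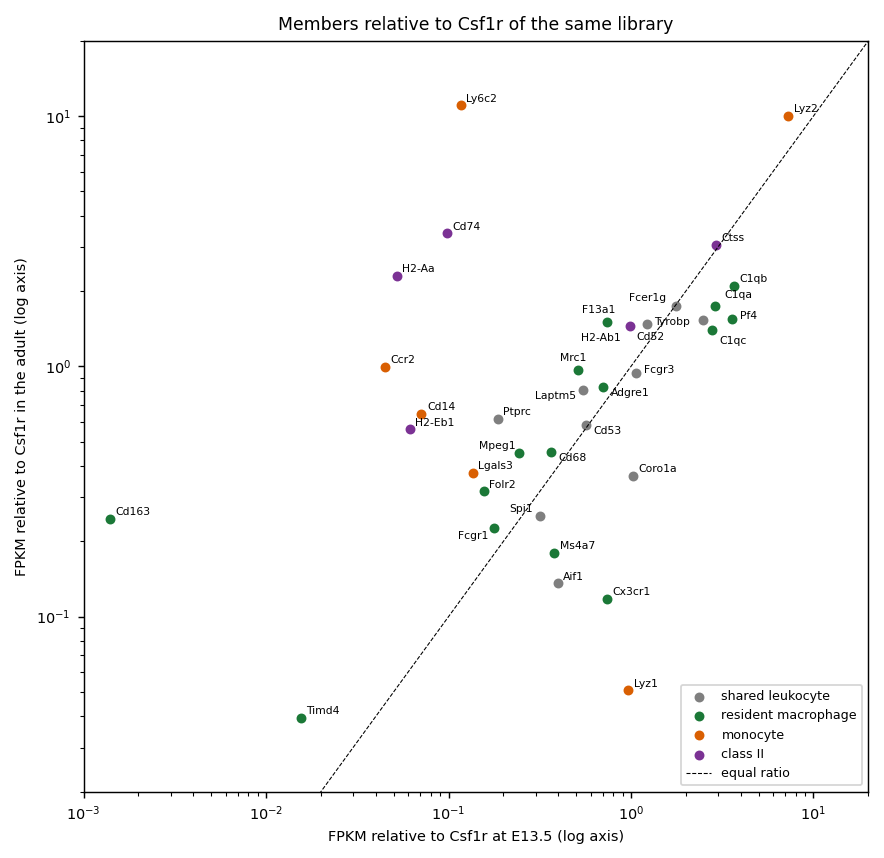
FPKM of each member divided by Csf1r FPKM of the same library, at E13.5 (horizontal, log axis) and in the adult (vertical, log axis), coloured by role, with the dashed line at equal ratios. Cd163, Cd74, H2-Aa, Ccr2, Cd14, H2-Eb1 and the joined Ly6c2 locus lie far above the line, and Cx3cr1, Aif1, Lyz1, Coro1a, Pf4 and the C1q genes are among those below it.

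Of the wider class II pathway, a list of 15 genes in 14 loci, 10 loci reached 1 FPKM and 0 were called in any of the 3 comparisons. The shares of mRNA loci called in these comparisons lay between 0.247% and 9.88%. The loci with the largest change over the whole span were Cd86 at 0.195, 0.471 and 3.31 FPKM and Cd80 at 0.0853, 0.278 and 2.25 FPKM, which encode ligands that costimulate T cells. They were followed by the joined locus of H2-DMb1 and H2-DMb2, the beta chains of the peptide exchanger H2-DM, at 0.319, 0.198 and 2.73 FPKM. Ciita, the coactivator that class II promoters depend on, was at 0.0641, 0.0722 and 0.931 FPKM, and was picked out after its values were seen. The genes named so far had their highest value in the adult, as the class II chains did, but at levels of about 1 to 3 FPKM. Rfx5 at 5.80, 5.17 and 3.20 FPKM, Rfxap at 5.49, 5.85 and 2.85 FPKM and Cd40 at 2.63, 4.02 and 2.21 FPKM were lowest in the adult. All other loci of the list were highest there, with Lgmn the highest of them at 46.5, 58.8 and 71.8 FPKM.

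Among 10 further genes of Fc receptors and their signalling, 0 were called higher from E10.5 to E13.5, 2 from E13.5 to the adult and 4 over the whole span. The shares of mRNA loci called higher were 0.851%, 4.41% and 5.59% in these comparisons. Fcgr2b, the inhibitory IgG receptor, was at 0.122, 0.115 and 15.8 FPKM, so that it was near 0 in both embryonic libraries where the activating Fcgr3 was at 0.222 and 6.43 FPKM. Fcgr4, another activating receptor, was at 0.103, 0.756 and 3.58 FPKM. The Src family kinase Fgr was at 0.0845, 0.137 and 3.64 FPKM. Of 10 myeloid transcription factor genes 9 reached 1 FPKM and 0 were called. The largest changes among them were those of Nr1h3 (joined with Madd) at 2.72, 2.41 and 11.6 FPKM, Irf8 at 0.475, 2.02 and 3.45 FPKM, and Runx1 at 0.428, 0.545 and 3.28 FPKM.

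Markers of other blood and tissue cells were read in the same libraries, because several of these cells share member genes. Of 10 neutrophil loci 5 reached 1 FPKM, and 2 of these were called higher from E10.5 to E13.5 (0.851% of mRNA loci). In this step Tyrobp, Fcer1g, Fcgr3 and Cd52, which neutrophils also carry, were called as well. So were Csf1r, Cx3cr1, the C1q genes and Ctss. The part of neutrophils in the values of Tyrobp, Fcer1g, Fcgr3 and Cd52 was not tested. The 2 neutrophil loci were S100a8 at 0.270, 8.46 and 15.4 FPKM and S100a9 at 0.239, 4.52 and 7.06 FPKM. Cxcr2 and Retnlg (joined with Retnla) were near 0 in both embryonic libraries, whose intervals overlapped. Cxcr2 was at 0.0591 FPKM (about 2 fragments), 0.0317 FPKM (about 3 fragments) and 1.35 FPKM. Retnlg was at 0.165 FPKM (about 1 fragment), then listed at 0, then at 4.20 FPKM. The receptor Csf3r was at 0.0419, 0.246 and 5.33 FPKM, and Elane was listed at 0 in all 3 libraries. Some other granule genes had lower adult values than E13.5 values, with Camp at 0.136 and 0.758 FPKM and then listed at 0, Ltf at 0.0206, 0.464 and 0.0916 FPKM, Mpo at 0.221, 0.0913 and 0.0159 FPKM, and Ngp at 0.737 FPKM at E13.5 and listed at 0 in both other libraries. The T and NK cell genes summed to 0.781, 1.56 and 4.59 FPKM over 11 loci, and 9 of the 11 were listed at 0 at E10.5, with Cd247 at 0.0380, 0.00994 and 1.77 FPKM and Lck at 0.743, 1.27 and 0.215 FPKM. B cells also present antigen through class II, and their genes summed to 0.241, 1.05 and 2.45 FPKM over 7 loci, with Cd79b listed at 0, then at 0.840 and 1.15 FPKM. 

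The dendritic cell genes summed to 7.65, 5.80 and 10.7 FPKM over 7 loci. Most of this was Zbtb46, also known from endothelium, at 7.40, 5.43 and 6.53 FPKM, and the largest changes were those of Itgax (joined with Itgad) at 0.0410, 0.0731 and 1.49 FPKM and Cd209a, which had 0.0458 FPKM in the youngest library, was listed at 0 at E13.5 and had 1.40 FPKM in the adult. The part of dendritic and B cells in the class II values was not tested. The mast cell genes summed to 6.30, 3.37 and 12.4 FPKM. Most of both embryonic sums was Kit, at 6.16, 2.20 and 1.31 FPKM, and the chymase Cma1 was at 0.0554, 0.0890 and 3.14 FPKM. Tpsb2 and Mcpt4, mast cell proteases, were listed at 0 at E10.5 and reached 2.70 and 2.59 FPKM in the adult.

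The erythroid genes summed to 7300, 19418 and 1629 FPKM over 9 loci, with the embryonic globins Hbb-y at 4356, 15112 and 2.87 FPKM, Hbb-bh1 at 1314, 366 and 0.0842 FPKM and Hba-x at 1057, 827 and 0.0946 FPKM. The locus of the adult globin Hbb-bs (joined with Hbb-b1 and Hbb-b2) was highest in the adult, at 131, 1320 and 1423 FPKM, and Alas2, an enzyme of haem synthesis, was at 18.2, 34.1 and 19.6 FPKM. The liver and Kupffer cell genes summed to 8.08, 18.3 and 3.67 FPKM, with the fetal serum protein Afp at 5.36, 10.7 and 0.0220 FPKM and Apoa1 at 1.99, 2.22 and 0.0451 FPKM, while Cd5l, a macrophage-secreted protein abundant in Kupffer cells, was listed at 0 and was then at 0.0492 and 3.37 FPKM. The platelet list was led by Ppbp at 5.37, 7.49 and 5.46 FPKM, and Itga2b and Gp9 were at 2.45 and 1.46 FPKM at E10.5 and at 0.468 and 0.185 FPKM in the adult. The part of these cells in the member values was not tested.

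**Figure D5:**
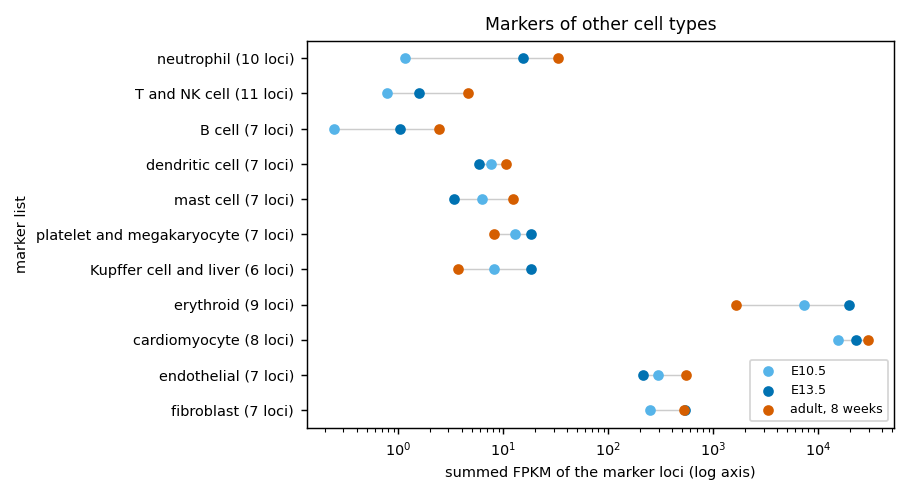
Summed FPKM of marker loci of other cell types in the 3 libraries (log axis), with the number of loci in brackets; the endothelial sum includes the joined Ly6c1 locus. The neutrophil sum, with S100a8 its highest locus in each library, was 1.15, 15.3 and 33.5 FPKM, and the erythroid sum was highest at E13.5 and lowest in the adult, where its highest locus was Hbb-bs and no longer the embryonic Hbb-y.

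Of the tissue cell lists, the endothelial genes summed to 297, 215 and 553 FPKM, the last including 269.5 FPKM of the joined Ly6c locus, with Tek at 46.5, 40.4 and 25.0 FPKM and Tie1 at 30.8, 28.9 and 18.8 FPKM. Pecam1 at 46.5, 47.6 and 72.8 FPKM, Kdr at 48.1, 20.3 and 61.9 FPKM and Cdh5 at 50.2, 12.9 and 47.2 FPKM were higher in the adult than at E13.5. The fibroblast genes summed to 251, 532 and 524 FPKM, with Dcn at 49.5, 75.9 and 351 FPKM. Apart from Dcn, all loci of this list were lower in the adult than at E13.5. Among them Tcf21 was at 18.3, 22.9 and 1.79 FPKM and Lum at 6.31, 66.3 and 23.2 FPKM. Col1a2 was at 30.4, 100 and 33.1 FPKM and Col3a1 at 124, 211 and 88.3 FPKM. Among the cardiomyocyte genes the largest changes were those of Pln at 505, 745 and 4551 FPKM, Tnni3 (joined with 6030429G01Rik) at 533, 1137 and 4059 FPKM and Tnnt2 at 626, 1522 and 3148 FPKM. The endothelial, fibroblast and cardiomyocyte lists had median changes between -0.20 and 0.93 in the first step and between -1.25 and 0.60 in the second.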

How the data were processed

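Per the labels, total RNA of ventricles was made into libraries with a stranded total RNA kit. According to the study's methods and the submitters' processing notes, paired-end reads were mapped to mm10 with TopHat2 and Bowtie and assembled with Cufflinks, whose exact versions are not given in the sources used here. The authors deposited FPKM per merged locus and library and the merged annotation. How multiply mapped fragments and strand were counted is not given in the sources used here.

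Members were matched by gene_name, each to the locus holding its RefSeq transcript. All lists, and the members themselves, were chosen with earlier results of these data known, and all 37 members are given. From other lists the 3 genes with the largest change from E10.5 to the adult among loci at 1 FPKM or more are named, and in cell type lists also the highest. Further genes of the lists are named, after their values were seen, where they differ from those. Some genes that this rule names are not reported here. Ly6g, Trac and Hbb-bt were not matched.

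Changes are differences of log2(FPKM + 1), called at 2, over 12569 of 20117 mRNA loci at 1 FPKM or more. The step was tested on simulated data. The fragments behind 1 FPKM were read from the commonest lowest product of FPKM and length in kb over 8431 single-exon loci of 1000 to 2000 nt (0.0725, 0.0375 and 0.0525, with half-height ranges of 0.055 to 0.09, 0.03 to 0.05 and 0.04 to 0.09). FPKM columns sum to 601115, 808971 and 443471. Scaling factors were 1.07, 1.19 and 0.804 (median of ratios over 14534 loci) or 0.934, 1.16 and 0.923 (totals without globin and mitochondrial loci). Promoters were searched on both strands for words settled after seeing matches. Members without a promoter entry were Adgre1, C1qa, Cd14, Cd52, Cd74, Csf1r, H2-Ab1, Spi1 and Tyrobp. Python 3.11.15, numpy 2.4.6, pandas 2.3.3, scipy 1.17.1 and matplotlib 3.10.9 were used.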

Additional observations from a re-analysis of the deposited data

How the results depend on the processing

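No paired analysis was possible because there was 1 library for a stage, and for the same reason none could be left out. Of 152 alternative values of the main results, 129 stayed within their tolerance (1.5 times for a count), 23 moved, and no called value changed its sign. With a pseudocount of 0.1, from E10.5 to E13.5 the members higher and lower were 18 and 2, and the medians were 1.93 for all members, 2.76 for resident macrophage and 2.97 for shared genes. From E13.5 to the adult 1 member was lower, and the medians were 4.12 for monocyte and 4.87 for class II genes. Over the whole span the medians were 4.70 for all, 4.63 for resident macrophage, 4.43 for monocyte, 5.36 for class II and 4.47 for shared genes. The smaller pseudocount widens the changes of low genes by construction. With a change of 1 in place of 2, there were 19 higher and 2 lower members in the first step, 29 and 1 in the second, and 35 and 1 over the whole span. With joined loci left out, 0 members were lower in the first step, where the class II median turned from -0.13 to 0.92, and the monocyte and class II medians of the E13.5 share of the adult were 8.93% and 9.75%. Median-of-ratios scaling gave 13.8% for the resident macrophage share, since Timd4 then also reached 1 FPKM and all shares fall with the factors. The shares, and the alternatives for them and for single members, were added after seeing the data. Of the alternative values of single members 268 stayed and 65 moved, all with the pseudocount of 0.1.

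The scaling also shifts the background. From E13.5 to the adult, of the mRNA loci 4.41% passed upward and 9.88% downward in the deposited scaling, 7.12% and 6.11% after scaling by median of ratios, and 5.63% and 7.21% with totals without globin and mitochondrial loci. From E10.5 to the adult the median-of-ratios shares were 7.86% and 6.09%, and from E10.5 to E13.5 they were 0.708% and 0.382%, against 0.629% and 0.636% with the totals. Member counts with these scalings were 9 higher and 1 lower, 25 or 23 higher and 0 lower, and 33 higher and 0 lower. Depth limits the E10.5 values most, where members under 0.3 FPKM rest on about 15 fragments or fewer.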

Other observations

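Genes of class I antigen presentation, which all nucleated cells carry, were read beside the class II genes. All 14 reached 1 FPKM, 0 were called from E10.5 to E13.5, 6 were higher from E13.5 to the adult and 7 over the whole span. Of all mRNA loci 0.851%, 4.41% and 5.59% were called higher in these comparisons. H2-K1, a class I heavy chain, was at 4.30, 6.04 and 41.7 FPKM. Psmb8, a subunit of the immunoproteasome, was at 0.431, 1.36 and 10.05 FPKM, and the peptide transporter Tap2 at 0.401, 0.545 and 6.94 FPKM. These genes were thus low in both embryonic libraries and higher in the adult one, at 14.5%, 13.53% and 7.85% of the adult value at E13.5. Of 10 macrophage ligands and chemokines, 7 reached 1 FPKM, with 4 higher from E13.5 to the adult and 2 over the whole span. The shares of mRNA loci called higher in these comparisons were 4.41% and 5.59%. The ligands of Ccr2 had the largest changes over the whole span. Ccl2 was at 10.7, 5.47 and 35.8 FPKM, Ccl7 at 2.25, 1.05 and 17.1 FPKM and Ccl12 at 0.215, 0.748 and 17.8 FPKM. These ligands had their highest value in the adult library, as Ccr2 did. Csf1, a ligand of Csf1r, was also highest there, at 4.34, 2.73 and 15.5 FPKM, and was called from E13.5 to the adult. Cxcl12 was highest at E13.5, at 23.6, 70.4 and 29.4 FPKM.

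Of 10 complement genes outside C1q, 9 reached 1 FPKM, and 0 were called from E10.5 to E13.5. From E13.5 to the adult 5 were higher, and over the whole span 6 were. The shares of mRNA loci called higher were again 0.851%, 4.41% and 5.59%. C3, the central complement component, was at 1.44, 0.409 and 37.4 FPKM, where C1qb of the same libraries was at 1.29, 21.9 and 51.0 FPKM. The anaphylatoxin receptors C5ar1 and C3ar1 were at 0.0722 and 0.528 FPKM at E10.5, at 0.339 and 2.66 FPKM at E13.5, and at 9.62 and 12.4 FPKM in the adult. Of 10 phagocytosis and scavenger receptor genes, all reached 1 FPKM, 0 were called in the first step and 3 in the second. Cd36, a fatty acid transporter that cardiomyocytes and endothelium also make, was at 39.3, 34.7 and 1226 FPKM for a locus joined with Mir5109. Msr1, the scavenger receptor A of macrophages, was at 0.240, 1.20 and 11.9 FPKM, and Siglec1, a sialic acid receptor of resident macrophages, was at 0.112, 0.133 and 7.53 FPKM.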
